A study of Mus musculus with 7 samples.

Results

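Genes that mark the vascular endothelium, and 3 genes of lymphatic vessels, were followed in RNA of mature white adipocytes from mice with and without FFA2 in adipocytes. The genes were a named list of 37 mouse symbols, and all 37 were found among the 57010 gene identifiers of the count table and all 37 were deep enough to be tested, of 17039 identifiers tested in all. The question was whether these genes were higher together in the knockout libraries, or whether some moved apart from the rest.

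Male mice carrying loxP sites in the gene for the free fatty acid receptor FFA2 (symbol Ffar2) were crossed to Adiponectin-Cre mice, and both genotypes carried the floxed alleles. The 3 FFA2 fl/fl libraries came from littermates used as controls, and the 4 Adipoq-F2-KO libraries came from mice in which Cre, driven by the adiponectin promoter, cuts the gene in adipocytes. The adiponectin promoter is one of adipocytes and is not known as one of endothelial cells. All mice were housed together, fed Teklad LM-485 normal chow without any other treatment, and 20 weeks old by the sample labels, whereas the published methods give a later age for the cohort. Mature adipocytes were freed from perigonadal fat by collagenase, and polyadenylated RNA was sequenced as read pairs with a stranded kit. The libraries were bulk RNA, and which cells gave the reads of each gene was not tested.

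Endothelial cells line every blood vessel and hold together through VE-cadherin, claudin and Pecam1 contacts, while ETS factors such as Erg and SoxF factors (Sox7, Sox17 and Sox18) keep their identity genes on. Notch signaling marks arteries, fenestral and water-channel genes mark capillaries and venules, and Prox1 sets the lymphatic fate. White fat is densely vascularized, and its capillaries pass fatty acids from lipoproteins to adipocytes.

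Total counts lay between 30478997 and 39992605 per library. Most low counts were even, as when both mates of a pair are counted, so the limit that a count of 0 allows was set at 6 counts, or 0.150 to 0.197 CPM (counts scaled to a common library total), which covers counting error alone. Ffar2 was at 37.5, 33.9 and 32.0 normalized CPM in FFA2 fl/fl and at 1.68, 1.15, 1.33 and 2.58 in Adipoq-F2-KO, a log2 fold change of -4.36 (SE 0.22, edgeR adjusted p = 7.97e-06), which matches the genotype labels. The adipocyte label was met as well, since Adipoq lay between 2419 and 3762 CPM and Plin1 between 1893 and 3107 in the 7 libraries. Transcripts of the mitochondrial chromosome took 4.41% to 5.77% of counts in FFA2 fl/fl and 6.61% to 10.3% in Adipoq-F2-KO. Adipoq-F2-KO library 4, the one with the fewest counts and the largest mitochondrial share, was the highest of the 4 knockout libraries in 29 of the 37 endothelial and lymphatic genes. For these 37 genes, log2 fold changes between the genotypes that moved over 1.5 times without it are also given without it. Fold changes of genes outside the 37, and medians of their lists, are given with all 7 libraries only.

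The endothelial genes were higher in Adipoq-F2-KO as a group, with small single-gene effects. The log2 fold change (Adipoq-F2-KO over FFA2 fl/fl) was above 0 in 34 of 37 genes (91.9%), beside 50.4% of all tested genes, and its median was 0.42 beside 0.00 for all genes. Cd34, Clec14a and Cd93 stood highest, with folds of 1.75, 1.75 and 1.74, and Palmd, Sox18 and Rgcc were the 3 genes below 0. In bulk RNA, a change in the number of cells of a type and a change in RNA per cell cannot be told apart.

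No single gene passed the main test. The quasi-likelihood test of edgeR, with Benjamini-Hochberg adjustment over all tested genes, called 0 of 37 genes higher and 0 lower at an adjusted p under 0.05, where it called 0.798% of all genes higher and 0.217% lower. The lowest adjusted p was 0.0599, for Cd93. At an unadjusted p under 0.05 the same fit held 22 of the 37 genes higher (59.5%, beside 10.5% of all genes) and 1 lower (Palmd, 2.70%, beside 7.37%). DESeq2, the tool of the published methods, called 8 genes higher (21.6%, beside 3.83% of all genes) and 0 lower (beside 1.13%), namely Pecam1, Cdh5, Cldn5, Cd34, Clec14a, Cd93, Adgrl4 and Erg. The limma voom test called Cd93 alone higher (2.70%, beside 0.974% of all genes). In 7 genes every knockout library lay above every control library (18.9%, beside 8.86% of all genes), and in 1, Palmd, every knockout library lay below (beside 8.72%).

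The size of the shift leaned on 1 library. Without Adipoq-F2-KO library 4 the median log2 fold change of the 37 genes was 0.26 in place of 0.42, 32 genes were above 0, 16 were higher at an unadjusted p under 0.05 by edgeR (beside 8.59% of all genes), and DESeq2 called 4 (Cdh5, Cldn5, Cd34 and Cd93, beside 2.48% of all genes). The number of genes with every knockout library above every control library was again 7 without it, beside 10.7% of all genes. Of the 37 log2 fold changes, 21 moved over 1.5 times without library 4, 20 of them towards 0 or past it, and those of Notch4 and Prox1 changed sign.

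**Figure D1:**
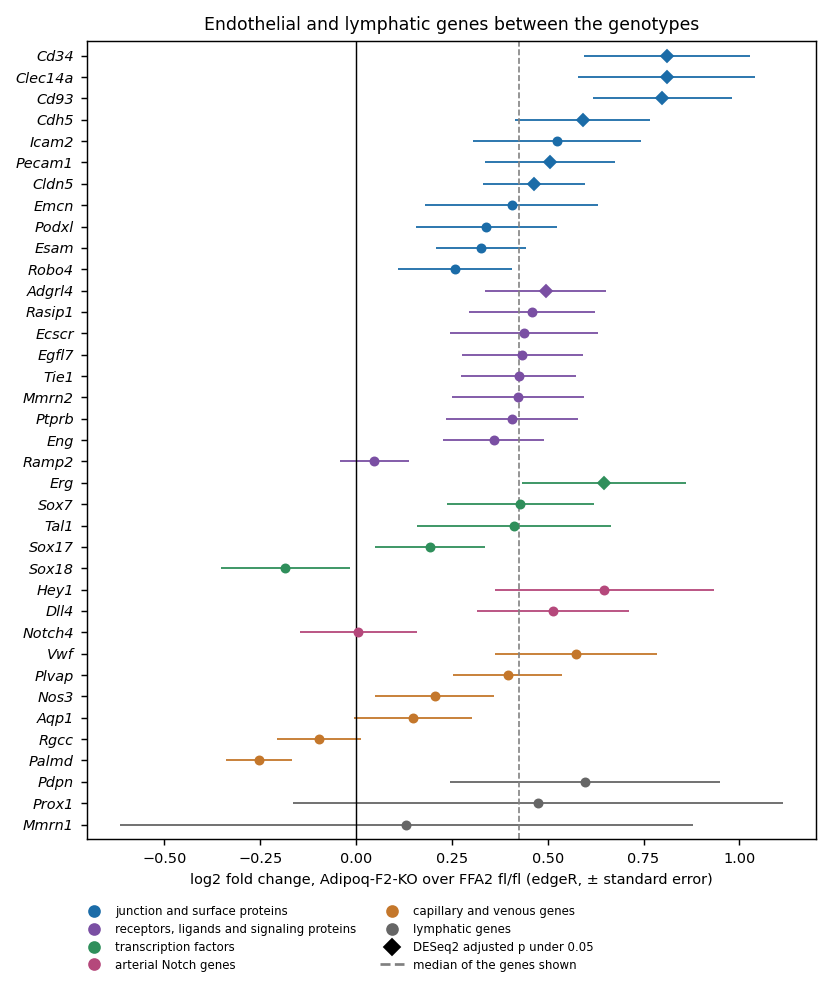
Log2 fold change of each of the 37 genes (x axis, Adipoq-F2-KO over FFA2 fl/fl, edgeR; bars are the standard error), ordered within the 6 groups by role. Most points sit to the right of 0 around the dashed median of 0.42, diamonds mark the 8 genes DESeq2 called, and Palmd, Rgcc and Sox18 sit to the left of 0.

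The junction and surface proteins, the largest group by role, were the group with the most calls. All 11 had a log2 fold change above 0 (median 0.51), beside 50.4% of all genes. At an unadjusted p under 0.05 edgeR held 8 of them higher (beside 10.5% of all genes), and DESeq2 called 6 (beside 3.83%). Cdh5 encodes VE-cadherin, the adherens junction protein of endothelium, and lies on chromosome 8 at 104828257 to 104871143 (+ strand, coordinates as the deposited table gives them). It was at 295, 418 and 343 CPM in FFA2 fl/fl and at 498, 468, 435 and 723 in Adipoq-F2-KO. The lowest knockout library stood just above the highest control, and the log2 fold change was 0.59 with a standard error (SE) of 0.18 (edgeR adjusted p = 0.123, DESeq2 adjusted p = 0.0114).

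Pecam1, the CD31 adhesion molecule also carried by platelets and leukocytes, was at 178, 236 and 210 CPM in FFA2 fl/fl and at 274, 254, 248 and 404 in Adipoq-F2-KO. The groups did not overlap, and library 4 stood far above the other 3 knockout libraries. The log2 fold change was 0.51 (SE 0.17, edgeR adjusted p = 0.159, DESeq2 adjusted p = 0.0381), and 0.32 without library 4. Cldn5, the tight junction claudin of endothelium, was at 191, 208 and 177 CPM against 251, 205, 299 and 303. Knockout library 2 fell among the controls, and the other 3 lay above them, with a log2 fold change of 0.46 (SE 0.13, edgeR adjusted p = 0.115, DESeq2 adjusted p = 0.0166).

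Cd93, a transmembrane C-type lectin of endothelial and myeloid cells, had the lowest p of the list. Its level was 88.3, 127 and 93.8 CPM in FFA2 fl/fl and 167, 148, 158 and 244 in Adipoq-F2-KO, so the groups stood clear of each other by a wider gap than in Cdh5 or Pecam1. The log2 fold change was 0.80 (SE 0.18, edgeR adjusted p = 0.0599, DESeq2 adjusted p = 3.92e-04, limma voom adjusted p = 0.0493). An exact two-sided permutation test of the means gave p = 0.0286, the smallest that 3 against 4 libraries allow.

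Cd34, a sialomucin shared by endothelium, adipose progenitors and blood stem cells, was at 35.6, 42.3 and 44.0 CPM against 55.6, 59.1, 60.5 and 110. All knockout libraries were above all controls and library 4 was far above the rest, and the log2 fold change was 0.81 (SE 0.22, edgeR adjusted p = 0.0980). Without that library it was 0.52 and edgeR called it. Clec14a, another C-type lectin of endothelium and a low gene here, was at 4.17, 4.08 and 3.22 CPM against 8.23, 6.38, 4.70 and 7.53, again without overlap (log2 fold change 0.81, SE 0.23, edgeR adjusted p = 0.111). The remaining 5 genes of the group overlapped between genotypes, with log2 fold changes of 0.52 for Icam2 (an adhesion ligand for leukocytes), 0.41 for Emcn (endomucin), 0.34 for Podxl (podocalyxin), 0.33 for Esam (a junction immunoglobulin protein) and 0.26 for Robo4 (a guidance receptor of endothelium). Without library 4 those of Emcn, Podxl and Robo4 were 0.13, 0.17 and 0.17.

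The receptors, ligands and signaling proteins were close to each other in effect, with 1 exception. All 9 were above 0 (median 0.42), 8 of 9 at an unadjusted p under 0.05 (beside 10.5% of all genes). Those 8 spanned only 0.36 to 0.49 on the log2 scale. Adgrl4, an adhesion G protein-coupled receptor of vessels, was at 54.9, 71.5 and 57.1 CPM against 77.3, 73.3, 79.8 and 114 without overlap, and was the member of this group that DESeq2 called (log2 fold change 0.49, SE 0.16, edgeR adjusted p = 0.145, DESeq2 adjusted p = 0.0441). Without library 4 it was 0.33. Tie1, the orphan receptor that works with Tek, was at 84.6, 116 and 102 CPM against 136, 116, 119 and 172. Its control library 2 met knockout library 2, so the groups overlapped (log2 fold change 0.42, SE 0.15, edgeR adjusted p = 0.178).

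Mmrn2 is the matrix protein that Cd93 and Clec14a bind. It was at 65.7, 87.8 and 76.5 CPM against 110, 82.0, 84.0 and 135 (log2 fold change 0.42, SE 0.17, edgeR adjusted p = 0.234), with knockout libraries 2 and 3 inside the range of the controls. The others of these 8 were Rasip1 (0.46), which is needed for vessel lumens, Ecscr (0.44), a surface regulator of endothelial migration, Egfl7 (0.43), a secreted vessel protein, Ptprb (0.41), the phosphatase that acts on Tek and VE-cadherin, and Eng (0.36), the endoglin coreceptor of TGF-beta ligands. Without library 4, Mmrn2 had 0.26 and Ptprb 0.24. The exception was Ramp2, which turns the calcitonin receptor-like receptor into a receptor for adrenomedullin. Its level was 56.9, 60.8 and 55.3 CPM against 60.3, 61.4, 54.6 and 62.2, a nearly level series in which even library 4 did not stand out, with a log2 fold change of 0.05 (SE 0.09, edgeR adjusted p = 0.820), and 0.03 without library 4.

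The transcription factors were spread more widely, from 0.65 for Erg down to -0.18 for Sox18 on the log2 scale. Erg, the ETS factor that holds endothelial identity, was at 34.5, 42.7 and 36.6 CPM against 55.8, 48.1, 43.8 and 90.1. The groups did not overlap, though knockout library 3 came close to the highest control, and the log2 fold change was 0.65 (SE 0.21, edgeR adjusted p = 0.157, DESeq2 adjusted p = 0.0380), and 0.38 without library 4. Tal1, a basic helix-loop-helix factor of endothelium and blood, was low at 4.81 to 6.56 CPM in FFA2 fl/fl and 5.71 to 11.5 in Adipoq-F2-KO (log2 fold change 0.41, and 0.14 without library 4).

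The 3 SoxF factors overlap in function in vessel and lymphatic development. Their log2 fold changes differed with all libraries, those of Sox7 and Sox17 were alike without library 4, and the difference between the genes was not tested here. Sox7 was at 57.8, 66.1 and 56.7 CPM against 77.2, 56.3, 75.4 and 115 (log2 fold change 0.43, SE 0.19, and 0.21 without library 4). Sox17, the arterial SoxF factor, was at 37.1, 38.2 and 35.3 CPM against 46.5, 31.5, 49.9 and 40.8 (0.19, SE 0.14, and 0.21 without library 4). Sox18, which induces Prox1 during lymphatic development, was at 14.4, 23.5 and 20.1 CPM against 18.9, 14.3, 16.6 and 18.2 (-0.18, SE 0.17, edgeR adjusted p = 0.605). All knockout libraries of Sox18 lay within or below the range of the controls, and in all 3 factors the groups overlapped.

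Among the arterial Notch genes the ligand and target were above 0 and the receptor was near 0, and the difference between the genes was not tested here. Dll4, the Notch ligand of arterial and sprouting cells, was at 48.5, 45.0 and 40.9 CPM against 58.4, 47.9, 55.0 and 94.9 (log2 fold change 0.51, SE 0.20, edgeR adjusted p = 0.210). Hey1, a Notch target gene, was at 5.39, 7.13 and 5.89 CPM against 8.28, 5.83, 8.82 and 15.6 (0.65, SE 0.29, edgeR adjusted p = 0.267). In both, knockout library 2 fell within the range of the controls and library 4 was the highest. Notch4, the Notch receptor of endothelium, was at 71.8, 100.8 and 91.1 CPM against 105, 69.3, 80.9 and 97.9, with the 2 genotypes spread over the same range (0.01, SE 0.15, edgeR adjusted p = 0.991). Without library 4 the log2 fold changes were 0.26 for Dll4, 0.32 for Hey1 and -0.05 for Notch4.

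The capillary and venous genes had log2 fold changes on both sides of 0, and the difference between the genes was not tested here. Vwf, the venous and platelet clotting factor, was at 51.3, 75.5 and 64.2 CPM against 93.3, 85.2, 65.4 and 135, with knockout library 3 inside the range of the controls (log2 fold change 0.57, SE 0.21, edgeR adjusted p = 0.191). Plvap, which forms the diaphragms of fenestrated capillaries and venules, was at 50.8, 63.5 and 63.6 CPM against 83.1, 62.3, 72.4 and 94.4 (0.40, SE 0.14, edgeR adjusted p = 0.181). Nos3, the endothelial nitric oxide synthase, had a log2 fold change of 0.20 (SE 0.15) and Aqp1, the water channel of capillaries and red cells, of 0.15 (SE 0.15), neither past an unadjusted p of 0.05. Without library 4, Vwf had 0.35 and Aqp1 0.01.

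Rgcc and Palmd were among the most abundant genes of the list and were below 0. On a scale of CPM per kilobase of exon, Rgcc, a cell cycle regulator that marks fat capillaries, was the first of the 37 at 515 in FFA2 fl/fl, ahead of Aqp1 at 262, Cldn5 at 135, Cdh5 at 83.8 and Palmd at 52.5, with Adipoq at 2613 on that scale. Rgcc was at 433, 512 and 473 CPM against 437, 454, 500 and 376, with the lowest value in library 4 (log2 fold change -0.10, SE 0.11, edgeR adjusted p = 0.689, and -0.03 without library 4). Palmd, which encodes palmdelphin, lies on chromosome 3 at 116711907 to 116762636 (- strand, coordinates of the deposited table). It was at 369, 394 and 383 CPM in FFA2 fl/fl and at 331, 333, 326 and 292 in Adipoq-F2-KO. The knockout libraries were close together and all below the controls, and the log2 fold change was -0.25 (SE 0.09, edgeR adjusted p = 0.165). An exact two-sided permutation test gave p = 0.0286, again the smallest possible. Rgcc and Palmd were both lowest in library 4. The mean log2 CPM of 10 adipocyte markers was lowest there too, at 11.4 against 11.7 to 11.9 in the other libraries. Which cells gave the reads of Rgcc and Palmd was not tested.

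**Figure D2:**
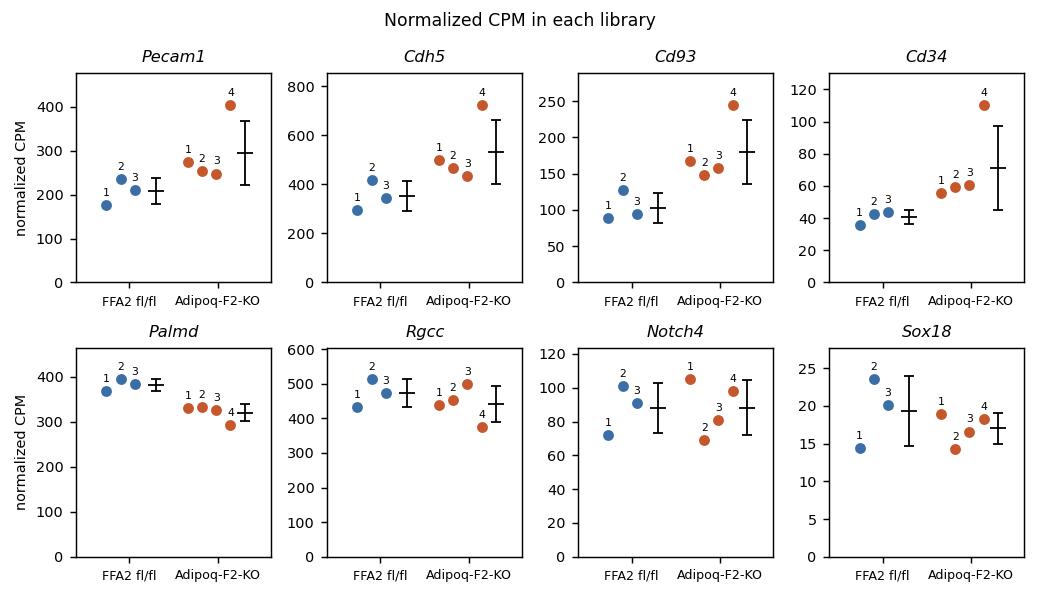
Normalized CPM (y axis, linear from 0) of 8 genes in each library, with the mean and SD of each genotype as bars beside the points and the library number above each point. The upper row holds Pecam1, Cdh5, Cd93 and Cd34, where all 4 knockout libraries lie above the 3 controls and library 4 is the highest. The lower row holds Palmd, where all 4 lie below, and Rgcc, Notch4 and Sox18, where the groups overlap.

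Prox1 and Mmrn1 were low, and Pdpn was at about the level of Clec14a. Prox1, the factor that sets lymphatic identity, was at 0.534, 0.832 and 0.410 CPM against 0.602, 0.729, 0.360 and 1.63, from 13 to 48 counts per library. Mmrn1, a multimerin of lymphatic endothelium and platelets, was at 1.07, 0.252 and 0.820 CPM against 0.151, 1.09, 1.27 and 0.611. Pdpn, which fibroblasts and mesothelium carry too, was at 2.67, 2.02 and 3.16 CPM against 2.61, 5.22, 2.38 and 5.66. The log2 fold changes were 0.47 (SE 0.64), 0.13 (SE 0.75) and 0.60 (SE 0.35), and -0.07, 0.23 and 0.38 without library 4. With these errors a shift of the size seen in the vascular genes was not detectable.

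To ask which genes moved apart from the rest, a pan-endothelial level was taken for each library as the mean log2 CPM of 12 of the 37 genes (Pecam1, Cdh5, Tie1, Esam, Egfl7, Ecscr, Robo4, Erg, Icam2, Clec14a, Ptprb and Adgrl4, here the core). It was 5.62, 6.05 and 5.75 in FFA2 fl/fl and 6.30, 6.10, 6.09 and 6.66 in Adipoq-F2-KO. The group means were 5.81 ± 0.22 (SD, n = 3) and 6.29 ± 0.27 (SD, n = 4), a difference of 0.48 or 1.39-fold. This includes knockout library 4, the highest of the 7, and the difference was not taken without it. The margin was thin, because FFA2 fl/fl library 2 lay just under knockout libraries 2 and 3, and on summed CPM it lay above knockout library 3 (1537 against 1523.5). The core was chosen with earlier results of these data known. All 12 core genes had a log2 fold change above 0 (0.26 to 0.81), and Palmd, Sox18 and Rgcc were left outside. Which genes lie below the core is thus partly set by this choice.

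With library 4 included, most of the 37 genes followed the core level from library to library within a genotype. Among the knockout libraries it had the highest core level (6.66 against 6.30, 6.10 and 6.09), and the measure was not taken without it. The SD between libraries of one genotype was smaller for the log2 ratio of a gene to the core than for its own log2 CPM in 29 of 37 genes (78.4%), in 12 of 12 core genes, each set against the other 11, and in 17 of 25 genes outside the core, beside 24.9% of all tested genes. The median SD went from 0.30 to 0.19 over the 37 genes and from 0.26 to 0.36 over all genes. The genes that did not follow the core by this measure were Palmd, Rgcc, Ramp2, Sox17, Nos3, Cldn5, Pdpn and Mmrn1. The SD went from 0.08 to 0.29 in Palmd, from 0.15 to 0.34 in Rgcc and from 0.08 to 0.20 in Ramp2, so their ratios mostly carry the spread of the core. These are descriptions over the same 7 libraries, and the genes share each library's makeup. How well the core genes follow each other is also partly set by how the core was chosen.

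The whole table was then fitted again by edgeR with each library scaled to its core level. This scaling moved the median log2 fold change of all genes to -0.47, while the 25 genes outside the core had a median of -0.11. Of those 25, the fit called 0 higher and 0 lower at an adjusted p under 0.05, where it called 0.423% of all genes higher and 7.91% lower. At an unadjusted p under 0.05 it held 0 of 25 higher (beside 1.58% of all genes) and 4 lower (16.0%, beside 36.4%). The 4 were Palmd (-0.71, SE 0.24, adjusted p = 0.0528), Sox18 (-0.64, SE 0.23, adjusted p = 0.0582), Rgcc (-0.54, SE 0.25, adjusted p = 0.108) and Notch4 (-0.47, SE 0.23, adjusted p = 0.123), all by edgeR. Against the median of all genes on this scale, Notch4 was level with the table as a whole, Rgcc close to it, and Palmd and Sox18 lay below it. The 0 calls do not show that no gene moved apart, because the scaling raised the median SE of the listed genes from 0.17 to 0.23. The SE did not follow the spread of the ratio to the core within a genotype. It was 0.23 for Eng and Cd93, with ratio SDs of 0.062 and 0.085, and 0.24 for Palmd, with 0.29. A small move apart could thus be missed.

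Library by library, the log2 ratio to the core was lower without overlap in 7 of the 25 genes (28.0%, beside 28.6% of all genes), namely Palmd, Sox18, Rgcc, Notch4, Ramp2, Aqp1 and Eng, and higher without overlap in 1, Cd93 (4.00%, beside 1.46%). The share that was lower is near that of the table, so it is no result about these genes, and their values are given as a description. Palmd had ratios of 2.90, 2.58 and 2.83 in FFA2 fl/fl and 2.07, 2.28, 2.26 and 1.53 in Adipoq-F2-KO. Notch4 had 0.54, 0.61 and 0.76 against 0.41, 0.02, 0.25 and -0.04. Sox18 had -1.77, -1.49 and -1.42 against -2.06, -2.25, -2.03 and -2.46.

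Aqp1 had ratios of 3.59, 3.52 and 3.73 against 3.30, 3.14, 3.35 and 3.28. Eng had a difference in ratio of -0.12, and the fit on the core scale gave -0.12 (SE 0.23, edgeR adjusted p = 0.727). Cd93 was higher in every knockout library, with ratios of 0.84, 0.94 and 0.80 in FFA2 fl/fl and 1.08, 1.11, 1.22 and 1.28 in Adipoq-F2-KO. Its difference was 0.31 (SD 0.072 and 0.093), and the fit on the core scale gave 0.31 (SE 0.23, edgeR adjusted p = 0.314). That SE was larger than either SD of the ratio, so the fit does not decide whether Cd93 moved apart from the core. Within the core itself Robo4 was lower against the other 11 genes, at 0.97, 1.13 and 1.00 against 0.89, 0.79, 0.86 and 0.67.

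**Figure D3:**
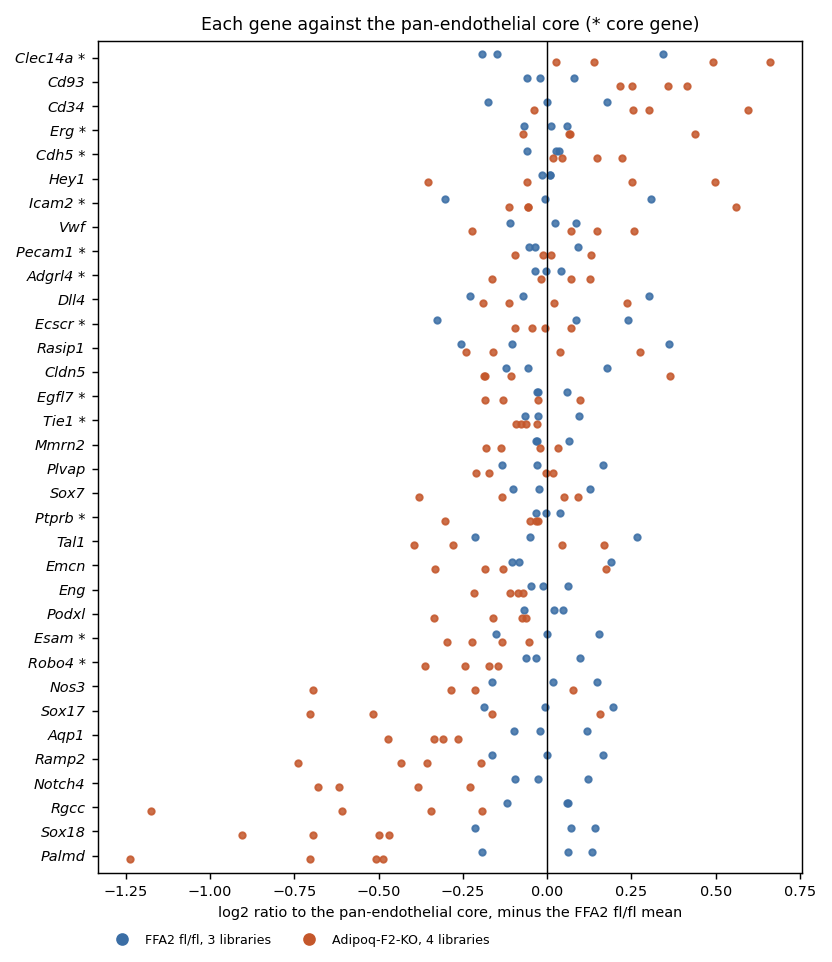
Log2 ratio of each of the 34 vascular genes to the pan-endothelial core in each library, with the FFA2 fl/fl mean of each gene set to 0 (x axis) and genes ordered by the knockout mean. An asterisk marks a core gene, which is set against the other 11. Most genes have both genotypes around 0, Cd93 lies to the right in all 4 knockout libraries, and Aqp1, Ramp2, Notch4, Rgcc, Sox18 and Palmd lie left of every control, as do Eng and Robo4 by smaller steps.

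ETS and SOX factors are themselves on the list, so promoter sequences with their letters are shown for 4 genes chosen after their values were seen. Tie1 and Adgrl4 are core genes that were higher at an unadjusted p under 0.05, and Rgcc and Notch4 were near 0 between the genotypes. The sequences are the 250 bases before the start site, from RefSeq on GRCm38.p6, written 5′ to 3′ on the gene's strand, with matches to the ETS letters AGGAAG and the SOX letters ACAATG, on either strand, in capitals.
Tie1, chr4:118489850-118490099 (- strand): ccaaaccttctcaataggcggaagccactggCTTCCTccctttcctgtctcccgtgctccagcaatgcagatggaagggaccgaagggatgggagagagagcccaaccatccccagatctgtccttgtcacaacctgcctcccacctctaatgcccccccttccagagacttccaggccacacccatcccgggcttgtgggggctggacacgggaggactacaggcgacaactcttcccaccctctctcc
Adgrl4, chr3:151437632-151437881 (+ strand): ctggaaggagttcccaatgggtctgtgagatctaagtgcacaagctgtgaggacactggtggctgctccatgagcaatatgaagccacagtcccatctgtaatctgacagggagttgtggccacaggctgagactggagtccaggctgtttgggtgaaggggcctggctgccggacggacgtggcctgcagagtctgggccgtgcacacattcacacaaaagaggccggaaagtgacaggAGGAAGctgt
Rgcc, chr14:79301636-79301885 (- strand): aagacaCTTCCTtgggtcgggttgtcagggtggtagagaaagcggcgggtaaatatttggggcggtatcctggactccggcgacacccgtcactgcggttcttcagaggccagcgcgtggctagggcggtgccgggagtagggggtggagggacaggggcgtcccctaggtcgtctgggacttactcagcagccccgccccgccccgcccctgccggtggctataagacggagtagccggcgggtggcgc
Notch4, chr17:34564045-34564294 (+ strand): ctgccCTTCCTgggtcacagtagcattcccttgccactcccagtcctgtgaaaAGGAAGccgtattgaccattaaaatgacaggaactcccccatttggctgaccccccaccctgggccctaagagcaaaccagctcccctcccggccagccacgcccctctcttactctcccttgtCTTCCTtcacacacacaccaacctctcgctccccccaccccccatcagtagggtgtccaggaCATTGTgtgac

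Tie1, Adgrl4 and Rgcc each held 1 ETS match and Notch4 held 3, and the 1 SOX match was in Notch4, so both pairs carried ETS letters. RefSeq windows of 250 bases before to 50 after the start were found for 19 of the 37 genes. The ETS letters were in 12 of these 19 (63.2%, beside 38.4% of 27025 genes) and the SOX letters in 3 (15.8%, beside 14.3%). A match is a description of letters and not a bound site.

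Other endothelial genes, which were not on the list, were read by vessel type, with no test between the types and with Kdr and Nr2f2 each on 2 of the lists. All 15 further pan-endothelial genes were above 0 (beside 50.4% of all genes), with a median log2 fold change of 0.43. At an unadjusted p under 0.05 edgeR held 7 (beside 10.5%). At an adjusted p under 0.05 edgeR called 0 (beside 0.798%) and DESeq2 called 3 (beside 3.83%). Among the 15 genes Ets1, another ETS factor, had the smallest p and was at 67.7, 116 and 84.6 CPM against 143, 137, 162 and 220 (0.89, SE 0.20, edgeR adjusted p = 0.0577). All 10 arterial genes tested were above 0 (median 0.37), 3 of them at an unadjusted p under 0.05 (beside 10.5% of all genes). Jag2, a Notch ligand, was at 31.4, 32.2 and 34.9 CPM against 48.0, 38.4, 42.8 and 54.0 (0.48, SE 0.12, edgeR adjusted p = 0.0838). Both genes were without overlap between the genotypes.

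The 6 venous genes tested were all above 0 with a median of 0.78, and 4 had an unadjusted p under 0.05 (beside 10.5% of all genes). Selp, the P-selectin of venules and platelets, was at 23.6, 51.4 and 34.4 CPM against 79.4, 81.9, 80.1 and 175, without overlap (1.51, SE 0.32, edgeR adjusted p = 0.0519, DESeq2 adjusted p = 0.0168). The 12 capillary genes had a median of 0.25, with 11 above 0 and 2 at an unadjusted p under 0.05 (beside 10.5% of all genes). Apln, a ligand of sprouting tip cells, was at 8.17, 15.9 and 9.02 CPM against 23.8, 11.4, 20.0 and 22.1 (0.81, SE 0.27, edgeR adjusted p = 0.164), and Rbp7, a retinol-binding protein of fat capillaries, had -0.09 (SE 0.18). The 9 further lymphatic genes had 4 above 0 and 5 below, with a median of -0.05. Stab1, which macrophages share, had 0.49 (SE 0.14, edgeR adjusted p = 0.107), and Lyve1 had -0.38 (SE 0.26, edgeR adjusted p = 0.471).

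Markers of other cells moved beside the endothelial genes, and their part in the result was not tested. Of all tested genes, 50.4% were above 0. Log2 fold changes and medians of these lists are given with knockout library 4 included. That library stood far above the other knockout libraries in the mural gene Rgs5 (807 against 394 to 443 CPM). It did so too in the red cell gene Hbb-bs (165 against 89.7 to 108 CPM). Of 12 macrophage genes 10 were above 0 (median 0.54), and edgeR called 2 of them (beside 0.798% of all genes). These were Cd68 (0.72, edgeR adjusted p = 0.0416) and Lyz2 (0.69, edgeR adjusted p = 0.0382). The 2 macrophage genes below 0 were Mertk (-0.42, SE 0.14, edgeR adjusted p = 0.152) and Cd163 (-0.12, SE 0.15). The summed level of that list ran from 437 to 492 CPM in FFA2 fl/fl and from 561 to 649 in Adipoq-F2-KO. Of 10 mural genes, those of pericytes and smooth muscle, 7 were above 0 (median 0.32; summed CPM 735 to 862 against 876 to 1555.5; Rgs5, 0.81). Of 10 progenitor genes 9 were above 0 (median 0.32; 839 to 1117 against 1187 to 1382.5 summed CPM; Col3a1, 0.41).

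All 8 tested genes of red cells and platelets were above 0 (median 0.60; summed CPM 104 to 229 against 216 to 385; Hbb-bs, 0.53). Of 8 mesothelial genes tested 3 were above 0 (summed CPM 12.6 to 58.0 against 11.8 to 16.4; Krt8, -2.01, SE 0.75, edgeR adjusted p = 0.197). Krt8 was uneven in the controls, at 31.1, 9.40 and 0.644 CPM against 3.36, 2.95, 3.15 and 4.21, so the groups overlapped. Germ cell and epididymal genes were uneven too, with Prm2 at 54.1 CPM in knockout library 2 and at most 5.31 in the other 6 libraries. Of 10 adipocyte genes 9 were below 0 (median -0.17; summed CPM 64139 to 71037 against 53679 to 66002; Car3, -0.11). No marker of these lists was at 0 in all 7 libraries. Fewer adipocyte transcripts and more endothelial ones were both furthest from the controls in Adipoq-F2-KO library 4.

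**Figure D4:**
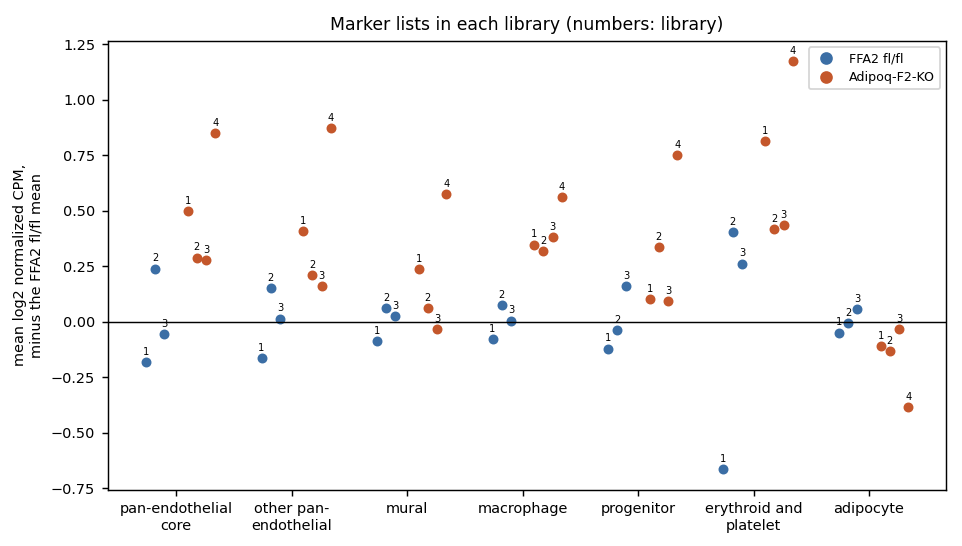
Mean log2 normalized CPM of 7 marker lists in each library, with the FFA2 fl/fl mean of each list set to 0 (y axis) and the library number above each point. Endothelial, mural, macrophage, progenitor and blood lists lie higher in most knockout libraries and highest in library 4, and the adipocyte list lies lowest there.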

How the data were processed

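Reads had been trimmed (Trimmomatic), mapped (STAR) and summed over genes (featureCounts) by the authors, per the published methods and the submitters' processing notes, which name GRCm38 and mm10. Versions and counting options, strand included, are not given in the sources used here, so overlapping and near-identical genes are uncertain. The deposited values are raw counts per gene and library. Gene coordinates of the table are not those of GRCm38, and are printed as deposited, while promoters come from RefSeq GRCm38.p6.

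From the deposited counts, genes were filtered by filterByExpr, scaled by TMM (factors 0.968 to 1.02) and tested with the quasi-likelihood test of edgeR (4.0.16, run under R 4.3.3; two-sided, genotype as the only term, Benjamini-Hochberg over 17039 genes, calls at an adjusted p under 0.05). The fit had a common coefficient of variation between mice of 0.258, with 6.26 prior degrees of freedom. Normalized CPM are on the TMM scale. For the fit on the core scale, the library scale was multiplied by 2 to the centred mean log2 CPM of the core. Single genes were compared by exact permutation over all 35 splits. DESeq2 1.42.0 and limma voom 3.58.1, other scalings and filters, halved counts, a replicate block and leaving out each library were alternatives. All scripts that test many genes were tested on simulated data.

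The members and lists were chosen with earlier results of these data known. All 37 genes are named, Ffar2, Adipoq and Plin1 serve as label checks, and from other lists the genes called, otherwise the smallest p in each direction, or the most abundant marker for other cell types. All 7 libraries were kept, since none repeated another (within a genotype, chi-square over its degrees of freedom was 39.7 or more). The labels number the mice within a genotype and do not say that a number is shared, and same-numbered libraries did not deviate together. The p-values measure the spread between these mice.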

Additional observations from a re-analysis of the deposited data

Results flagged for a closer look

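In 3 of the 37 genes, Adipoq-F2-KO library 4 stood apart from the other 3 knockout libraries by more than Dixon's 95% critical value. Pecam1 was at 404 normalized CPM there, Cd34 at 110 and Adgrl4 at 114, each far above the next highest knockout library. Chance alone sets apart about 1 in 20 groups of this size, and groups of 3 were not tested, so the controls were not examined in this way. The 3 genes share the library, and no explanation was tested.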

How the results depend on the processing

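The count of genes called higher was 0 by edgeR (beside 0.798% of all genes) and 8 by DESeq2 (beside 3.83%). It was 1 by limma voom (Cd93, beside 0.974%) and 17 when genes with at least 1 count were kept (beside 3.76%). Under the replicate block it was 1 (Cd34, beside 1.13%), with knockout library 4 left out for want of a partner. It lay between 0 and 1 when single libraries were left out, the 1 being Cd34 without knockout library 4 (beside 0.817% of all genes). The count of genes outside the core called relative to it was 0, and 2 (Palmd and Sox18) with a filter of at least 1 CPM in 3 libraries, 2 with counts divided by 2, and between 0 and 2 when single libraries were left out (1 without FFA2 fl/fl library 2, 2 without knockout library 3, 1 without knockout library 4). The main fit on the core scale called 7.91% of all genes lower. Shares under these alternatives were not taken, so the counts are no result about Palmd or Sox18. Alternatives chosen after seeing the data left out knockout library 4 from the other counts, and only DESeq2's calls changed by more than 1.5 times, from 8 to 4. The cause of these changes was not tested.

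The median log2 fold change of the 37 genes stayed above 0, and none of them was called lower between the genotypes, under each alternative run. The median ranged from 0.26 without knockout library 4 or under the replicate block to 0.52 without FFA2 fl/fl library 2, and 32 to 34 genes were above 0. The numbers of the libraries did not pair them (correlations of 0.031, -0.024 and -0.020), so the replicate block shows no more than a shared number. Genes that were not called changed sign under some alternatives, Notch4 in 4 of 14, Mmrn1 in 4 of 14 and Prox1 in 2 of 13. Counts were fewest in Prox1 and Mmrn1 (6 to 48 per library).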
